A study of Arabidopsis thaliana with 4 samples.

Results

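The genes described here encode nuclear subunits of the mitochondrial respiratory chain, grouped by complex, together with cytochrome c. They were compared between the css1 mutant and the wild type (Columbia accession) of Arabidopsis thaliana, as intact seedlings at 9 days of age, with 2 independent RNA samples of each genotype and 1 Affymetrix array per sample. All seedlings grew in continuous light on B5 agar with 2% sucrose. The members were a list of 49 loci, of which 26 had a probe set that the array annotation pairs with a single gene. These 26 are the measured members. They comprise 14 of 27 listed loci of complex I, 3 of 3 of complex II, 6 of 9 of complex III, 2 of 2 of cytochrome c and 1 of 2 of complex IV. None of the 6 listed loci of complex V (ATP synthase) had such a probe set. Of the 23 listed loci without their own probe set, 5 share a probe set with another gene, and none of the 23 is analysed here. For a locus with several probe sets the brightest over the 4 arrays was used, and none of the 26 probe sets has a name ending that denotes probes matching several transcripts. The labels do not name the gene affected in css1, and neither the allele nor the way it was made is given in the sources used here. In the plant literature css1 stands for a line with a lesion in a nuclear maturase that is needed to splice a mitochondrial transcript of complex I.

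The respiratory chain of the inner mitochondrial membrane takes electrons from NADH at complex I and from succinate at complex II. Ubiquinone carries them to complex III, and cytochrome c, a small soluble protein, carries them on to complex IV, where oxygen is reduced. Complexes I, III, IV and V are built from subunits of both the nuclear and the mitochondrial genome, so nuclear transcripts report on only part of each. In plants the core proteins of complex III also act as the peptidase that removes targeting sequences from imported proteins, and complex I is joined by GLDH, the last enzyme of ascorbate synthesis, during its assembly.

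Signals are log2 values of RMA, the background correction, normalization and probe-set summary that the authors applied. Array medians lay between 6.32 and 6.37. Over all probe sets the css1 arrays correlated at 0.997, the wild-type arrays at 0.996 and arrays of different genotypes at 0.982 to 0.986. A gene was counted as higher or lower when its limma p, adjusted by the Benjamini-Hochberg method over all 22746 probe sets, was under 0.05. At this threshold 15.6% of all probe sets passed in either direction and 7.63% were higher in css1. With 2 arrays per genotype an exact permutation test of a single gene cannot go below p = 0.333, so the tests below rest on limma's spread pooled over probe sets. The spread between samples of a genotype is that between 2 independent RNA samples.

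All 26 measured members had a higher mean signal in css1 than in wild type, and 8 passed the threshold, all of them higher in css1 (30.8% of the measured members, beside 7.63% of all probe sets). The 8 were the complex II genes SDH1-1, SDH2-1 and SDH2-2, the complex III genes AT3G27240, AT4G32470 and AT5G25450, and both cytochrome c genes, CYTC-1 and CYTC-2. No measured member of complex I or complex IV passed. The mean signals of the members ran from 6.90 to 12.3, in the brighter range of the array. Among the 5687 probe sets with the highest mean signal, a comparison chosen after the data were seen, 12.4% were higher in css1. These begin at a mean signal of 7.96, and GLDH (6.90) and AT5G25450 (7.38) lay below that. The median difference of the 26 members was 0.33 log2 units, where the median of all probe sets was -0.03. Both css1 arrays lay above both wild-type arrays for 24 of the 26 members (92.3%), which was so for 26.6% of all probe sets and for 37.0% of those 5687. The exceptions were FRO1 and AT3G15640, whose genotypes overlapped.

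**Figure D1:**
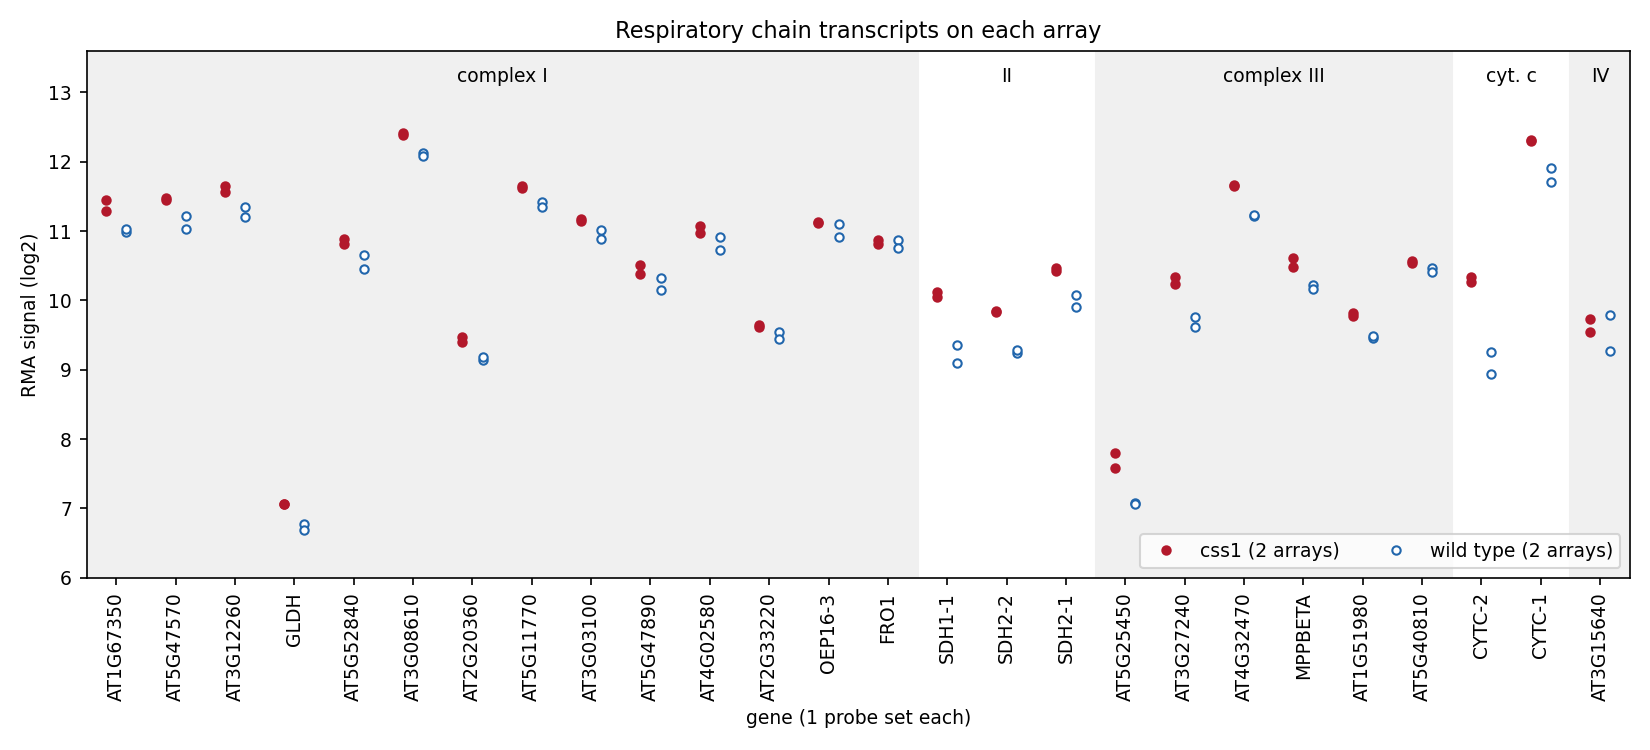
RMA signal in log2 units of the 26 measured genes, grouped by complex, with each array as a point (css1 filled, wild type open). The css1 points lie above both wild-type points for all genes except FRO1 and AT3G15640.

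Succinate dehydrogenase, complex II, rose in css1 in all 3 of its measured members, with a median difference of 0.58 log2 units. SDH1-1 (AT5G66760), the flavoprotein that oxidises succinate, had signals of 10.05 and 10.12 in css1, against 9.36 and 9.10 in wild type. The lowest css1 value lay well clear of the highest wild-type value, and the gene rose 1.81-fold (log2 difference 0.85, SE 0.11, adjusted p = 0.00973). SDH2-2 (AT5G40650), an iron-sulfur subunit that passes electrons from the flavoprotein towards ubiquinone, had signals of 9.84 and 9.84 in css1, against 9.24 and 9.28 in wild type. Its replicates were close together in both genotypes and it rose 1.50-fold (0.58, SE 0.08, adjusted p = 0.0119). SDH2-1 (AT3G27380), for the same kind of subunit, had signals of 10.46 and 10.42 in css1, against 10.07 and 9.91 in wild type. It rose 1.37-fold (0.45, SE 0.10, adjusted p = 0.0328). A second, dim probe set of SDH2-1 did not show this, with 3.37 and 3.68 in css1 and 3.79 and 3.68 in wild type (-0.21, adjusted p = 0.322). With both probe sets of SDH2-1 averaged, the locus did not pass (0.12, adjusted p = 0.466). Whether SDH2-1 and SDH2-2 differed in their response was not tested.

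Both cytochrome c genes rose, and CYTC-2 had the largest difference of the 26 members. CYTC-2 (AT4G10040) had signals of 10.33 and 10.26 in css1, against 8.95 and 9.26 in wild type. This was a 2.29-fold rise (1.19, SE 0.13, adjusted p = 0.00553), a difference larger than that of 99.1% of the 13286 loci with a named probe set. CYTC-1 (AT1G22840), which encodes the same carrier, had signals of 12.30 and 12.31 in css1, against 11.92 and 11.71 in wild type. Its css1 replicates were nearly identical and it rose 1.41-fold (0.50, SE 0.10, adjusted p = 0.0295). The 95% interval of the difference was 0.88 to 1.51 log2 units for CYTC-2 and 0.24 to 0.75 for CYTC-1. The difference between the genes was not tested.

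Complex III rose in part, with 3 of its 6 measured members higher and a median difference of 0.39. Those 3 were a cytochrome c1 gene and both genes of a small accessory subunit. AT3G27240, which encodes cytochrome c1, the haem protein that hands electrons to cytochrome c, had signals of 10.34 and 10.23 in css1, against 9.76 and 9.62 in wild type. It rose 1.51-fold (0.60, SE 0.10, adjusted p = 0.0161). The other cytochrome c1 gene, AT5G40810, had 10.57 and 10.54 in css1, against 10.47 and 10.41 in wild type, and did not pass (0.12, 95% interval -0.09 to 0.33, adjusted p = 0.412). Its css1 values lay above its wild-type values by little, and the contrast between the cytochrome c1 genes was not tested.

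The genes of the small accessory subunit of complex III are AT5G25450 and AT4G32470. AT5G25450 had signals of 7.58 and 7.79 in css1, against 7.08 and 7.06 in wild type, and rose 1.53-fold (0.62, SE 0.10, adjusted p = 0.0177). Its css1 arrays were farther apart than its wild-type arrays. AT4G32470 had 11.66 and 11.64 in css1, against 11.22 and 11.23 in wild type, and rose 1.34-fold (0.43, SE 0.08, adjusted p = 0.0247). The genes of the core proteins, which are also subunits of the processing peptidase, lay just outside the threshold. MPPBETA (AT3G02090) had 10.62 and 10.48 in css1, against 10.23 and 10.16 in wild type (0.35, adjusted p = 0.0555). AT1G51980, for the partner alpha subunit, had 9.82 and 9.78 in css1, against 9.46 and 9.49 in wild type (0.32, adjusted p = 0.0542). Both core genes passed when each array was centred on its median (adjusted p = 0.0389 and 0.0388). Centring also raised the number of all probe sets higher in css1, from 1736 to 2069.

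None of the 14 measured members of complex I passed limma's threshold, while 8 had an unadjusted p under 0.05. Such an unadjusted limma p was also found for 7214 of all 22746 probe sets. The median difference of the 14 was 0.26 log2 units, and all 14 differences were above 0. Both css1 arrays lay above both wild-type arrays for 13 of the 14 (92.9%, beside 26.6% of all probe sets). The median of the complex I genes, taken relative to each gene's wild-type mean, was 0.27 and 0.25 on the css1 arrays, against 0.05 and -0.05 on the wild-type arrays. In complex II these medians were 0.58 and 0.58 in css1, against 0.08 and -0.08 in wild type. The spread of the css1 to wild-type differences within complex I was narrow, from 0.03 to 0.36. Among the listed members, on the brightest probe set of each, the largest difference in complex I was below the smallest in complex II (0.45). It was also below that of either cytochrome c gene, while complex III (0.12 to 0.62) spanned it. The separation from complex II depended on these choices. AT3G27380, the member with the 0.45, differed by 0.12 with its probe sets averaged, 1 of which was dim. Outside the list, AT2G18450 of complex II, also dim, differed by -0.08. Dim probe sets may not show a rise. Other measured complex I subunits ran from -0.0029 to 0.61, with a median of 0.34. Members of a complex are not replicates, so the contrast between complexes is given as counts and medians with no test.

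The members of complex I are given by their place in the complex. In the matrix arm, where NADH is oxidised, AT4G02580, an iron-sulfur subunit, had signals of 11.07 and 10.98 in css1, against 10.91 and 10.73 in wild type (0.20, adjusted p = 0.243). AT5G11770, the iron-sulfur subunit that delivers electrons to ubiquinone, had 11.65 and 11.62 in css1, against 11.42 and 11.34 in wild type (0.25, adjusted p = 0.104). Both genes thus had css1 values above their wild-type values by less than the threshold demands. GLDH (AT3G47930), the ascorbate enzyme, had the smallest p among the 14 measured members of the complex, with 7.07 and 7.06 in css1, against 6.78 and 6.70 in wild type (0.33, SE 0.09, 95% interval 0.12 to 0.54, adjusted p = 0.0546).

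The other 11 measured members of complex I are accessory subunits, which surround the catalytic core. AT1G67350 had the largest difference among them, with signals of 11.29 and 11.44 in css1, against 10.99 and 11.03 in wild type (0.36, adjusted p = 0.0568). AT5G47570 differed by 0.33 (adjusted p = 0.0748), AT3G12260, of the LYR-motif family, by 0.33 (adjusted p = 0.0714), and AT3G08610 by 0.30 (adjusted p = 0.0673). These genes sit near the threshold: GLDH, AT1G67350 and AT3G08610 passed after median centring of the arrays (adjusted p = 0.0383, 0.0453 and 0.0469). AT5G52840 (0.30), AT2G20360 (0.27), AT3G03100 (0.21) and AT5G47890 (0.21) had adjusted p between 0.0873 and 0.230. AT2G33220 (0.13) and OEP16-3 (AT2G42210; 0.11), a subunit related to mitochondrial protein translocases, were lower in the range. FRO1 (AT5G67590), an accessory subunit of the matrix arm whose loss is known to impair cold acclimation, had 10.87 and 10.81 in css1, against 10.86 and 10.76 in wild type. Its genotypes overlapped (0.03, 95% interval -0.19 to 0.25, adjusted p = 0.883).

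**Figure D2:**
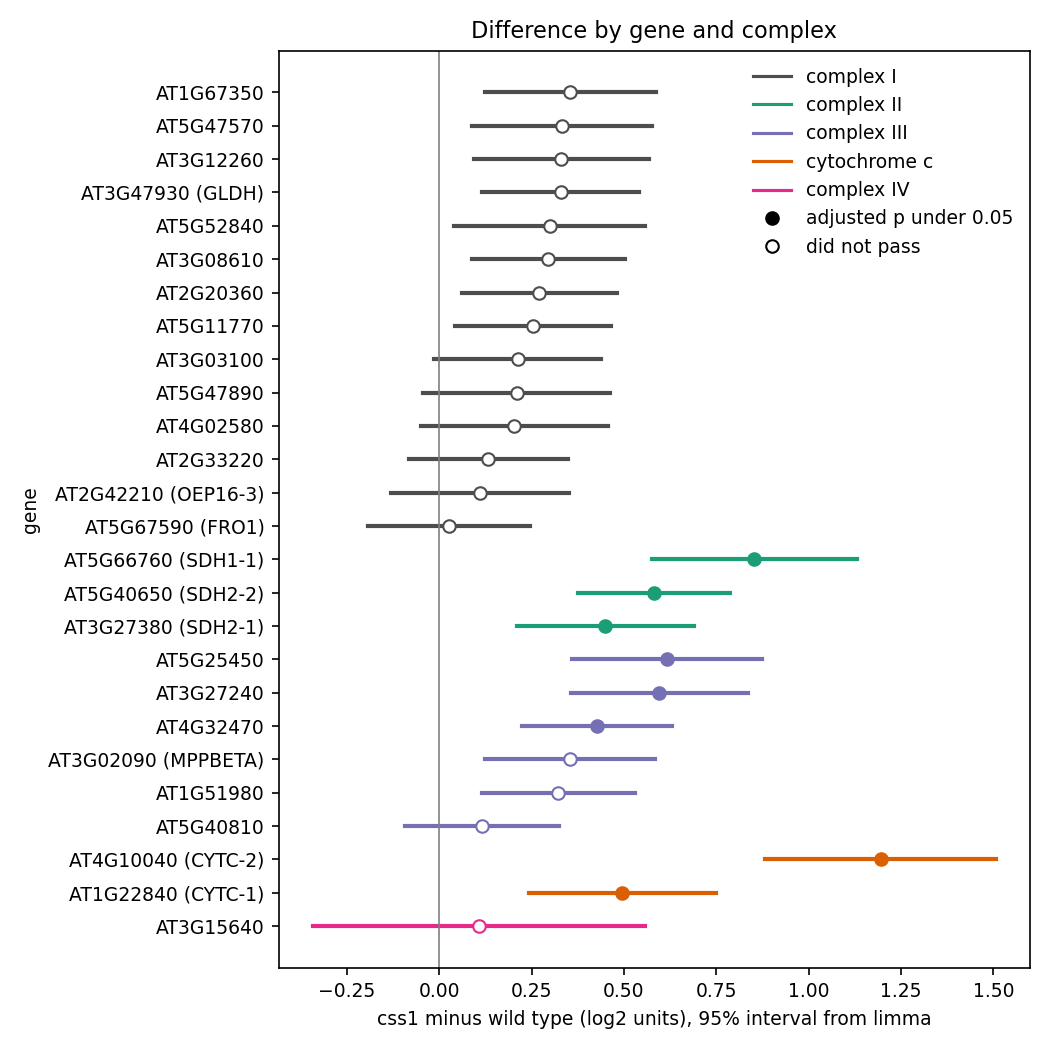
Difference in log2 signal between css1 and wild type for each measured gene with its 95% interval, coloured by complex and filled where the adjusted p was under 0.05. Complex I genes lie between 0.03 and 0.36, and CYTC-2 lies at 1.19.

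The only measured member of complex IV, AT3G15640, encodes an accessory subunit of cytochrome c oxidase. Its signals were 9.74 and 9.54 in css1, against 9.79 and 9.27 in wild type. The genotypes overlapped, with the wild-type arrays both the highest and the lowest (0.11, SE 0.18, 95% interval -0.34 to 0.56, adjusted p = 0.744). Leaving out wild type replicate 1 gave a difference of 0.37, and leaving out wild type replicate 2 gave -0.15, so its sign rested on 1 array.

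Technical values differed between arrays, only in part by genotype. The 27 probe sets for Bacillus poly-A spike-ins, which are added to the RNA before labelling, differed by -0.08 to 0.58 log2 units. Their median difference was 0.23, where that of the complex I members was 0.26. The spike-in medians were 5.35 and 5.26 on the css1 arrays, against 4.89 and 5.23 on the wild-type arrays. Wild type replicate 2 was thus close to the css1 arrays. The median difference of wild type replicate 1 from replicate 2 was -0.21, about as large as that between genotypes. All spike-in medians were below the array medians of 6.32 to 6.37. The 18 probe sets for hybridization spike-ins had a median difference of 0.0036. The difference between the 3′ and 5′ control probe sets of actin, which grows as RNA or labelled product gets shorter, was 2.57 and 2.61 in css1, against 2.49 and 2.49 in wild type. That of GAPDH averaged 0.20 in css1 and 0.22 in wild type, and that of ubiquitin 1.25 in css1 and 1.22 in wild type. The part of these values in the differences of the members was not tested.

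Tissue make-up was followed with few markers, since whole seedlings were used and fewer cells of a type cannot be told apart from less RNA per cell. Of 17 green tissue markers only LHCB4.1, a light-harvesting protein of photosystem II, was measured, with 13.16 and 13.09 in css1, against 13.08 and 13.37 in wild type (-0.11, adjusted p = 0.611). Of 14 root markers only the root hair expansins EXPA7 and EXPA18 were measured. For each gene both css1 arrays lay below both wild-type arrays, as they did for 7599 of all 22746 probe sets. The summed linear signal of EXPA7 and EXPA18 was 202 to 212 in css1 and 248 to 308 in wild type. The differences were -0.33 for EXPA7 and -0.51 for EXPA18 (adjusted p = 0.123 and 0.0858). No seed storage marker was measured. The part of tissue make-up in the differences of the members was not tested.

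Other nuclear subunits of the chain, outside the list of members, rose in most cases. Of 45 such loci 27 were measured, with a median difference of 0.40. Of these, 16 were higher (59.3%, beside 7.63% of all probe sets and 12.4% of the 5687 brightest), none lower and 11 did not pass. By complex, 5 of 10 were higher in complex I, 0 of 1 in complex II, 4 of 5 in complex III, 3 of 6 in complex IV and 4 of 5 in complex V. The absence of calls among the 14 members of complex I thus did not extend to the other measured genes of that complex, whose median difference was 0.34. Their assignment to complexes was made after the values were known.

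The other subunits with the smallest p came from complexes V, I and IV. AT4G26210, for a small subunit of the membrane part of ATP synthase, had signals of 9.37 and 9.30 in css1, against 8.65 and 8.37 in wild type, a 1.77-fold rise (0.83, SE 0.12, adjusted p = 0.0121). AT2G19680, for the same kind of subunit, had 9.31 and 9.27 in css1, against 8.81 and 8.67 in wild type (0.55, adjusted p = 0.0173). Both genotypes were well separated for these genes. The complex I genes AT2G31490 (0.61, adjusted p = 0.0144), AT2G47690 (0.57, adjusted p = 0.0159) and AT1G14450 (0.49, adjusted p = 0.0178) rose, as did AT3G62400 of cytochrome c oxidase (0.55, adjusted p = 0.0145). AT2G31490 had 10.64 and 10.67 in css1, against 10.12 and 9.97 in wild type, a 1.53-fold rise. The lowest value of the list was that of SDH1-2 (AT2G18450), chosen after its value was seen, an isoform of SDH1-1 whose signals of 4.05 and 4.04 in css1 and 4.05 and 4.20 in wild type were dim (-0.08, adjusted p = 0.641).

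**Figure D3:**
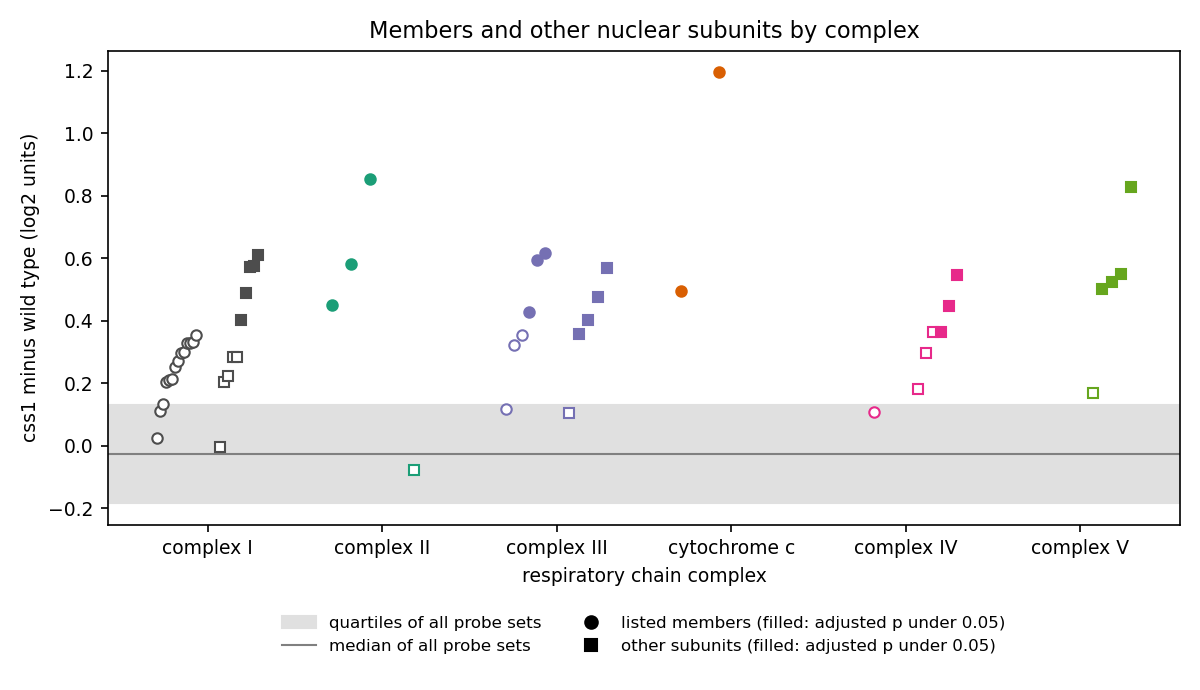
Difference in log2 signal between css1 and wild type for the listed members (circles) and other measured nuclear subunits (squares) of each complex, filled where the adjusted p was under 0.05, with the median of all probe sets as a line and the range between their quartiles as a band. Filled circles are found in complexes II and III and cytochrome c, and filled squares in complexes I, III, IV and V.

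Assembly factors rose in part, with 3 of 8 measured genes higher, of 21 listed, and a median difference of 0.29. The share higher was 37.5%, beside 7.63% of all probe sets. AT2G39725, a LYR-motif protein related to a complex II assembly factor known from yeast and human cells, had signals of 7.42 and 7.72 in css1, against 6.58 and 6.49 in wild type. It rose 2.04-fold (1.03, SE 0.12, adjusted p = 0.00750). AT2G34050 and AT5G40660 are related to the yeast chaperones that assemble the catalytic head of ATP synthase. AT2G34050 had 7.78 and 7.90 in css1, against 7.29 and 6.96 in wild type, and rose 1.64-fold (0.72, adjusted p = 0.0216). AT5G40660 had 8.52 and 8.53 in css1, against 8.05 and 7.99 in wild type, and rose 1.42-fold (0.50, adjusted p = 0.0172). The other 5 measured genes, AT5G67490 (0.36), AT1G53030 (0.23), AT1G02410 (0.03), CCMH (0.02) and AT1G48510 (-0.24), did not pass and were named after their values were seen.

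The non-phosphorylating branch overlaps with this pathway. Of its 12 listed genes 5 were measured, and 2 of these rose (40.0%, beside 7.63% of all probe sets). Both encode type II NAD(P)H dehydrogenases, which feed electrons into the chain without passing through complex I. NDB4 differed by 1.07 (adjusted p = 0.00319), and for NDB2 the difference was 1.02 (adjusted p = 0.00567). The other 3 measured genes, NDB1 (0.21), NDB3 (0.25) and NDC1 (-0.07), named after their values were seen, are of the same kind and did not pass. The listed genes of the alternative oxidase, the other enzyme of this branch, had no single-gene probe set and were not measured.

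The calls depended on which arrays were in the fit more than the differences did. Most of the 8 calls were lost without either css1 array. Fewer of all probe sets passed with any 1 array left out, so the loss of calls was not particular to the members. Such a fit keeps a single array of 1 genotype, so the differences are given here. With 1 array left out, that of CYTC-2 was 1.04 to 1.35. The differences of the 8 members that passed with all arrays stayed positive in each case, from 0.73 to 0.98 for SDH1-1, 0.37 to 0.53 for SDH2-1, 0.56 to 0.60 for SDH2-2, 0.39 to 0.60 for CYTC-1, 0.52 to 0.67 for AT3G27240, 0.51 to 0.72 for AT5G25450 and 0.42 to 0.43 for AT4G32470. The median of complex I was 0.23 to 0.29 and that of complex II was 0.56 to 0.60.

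**Figure D4:**
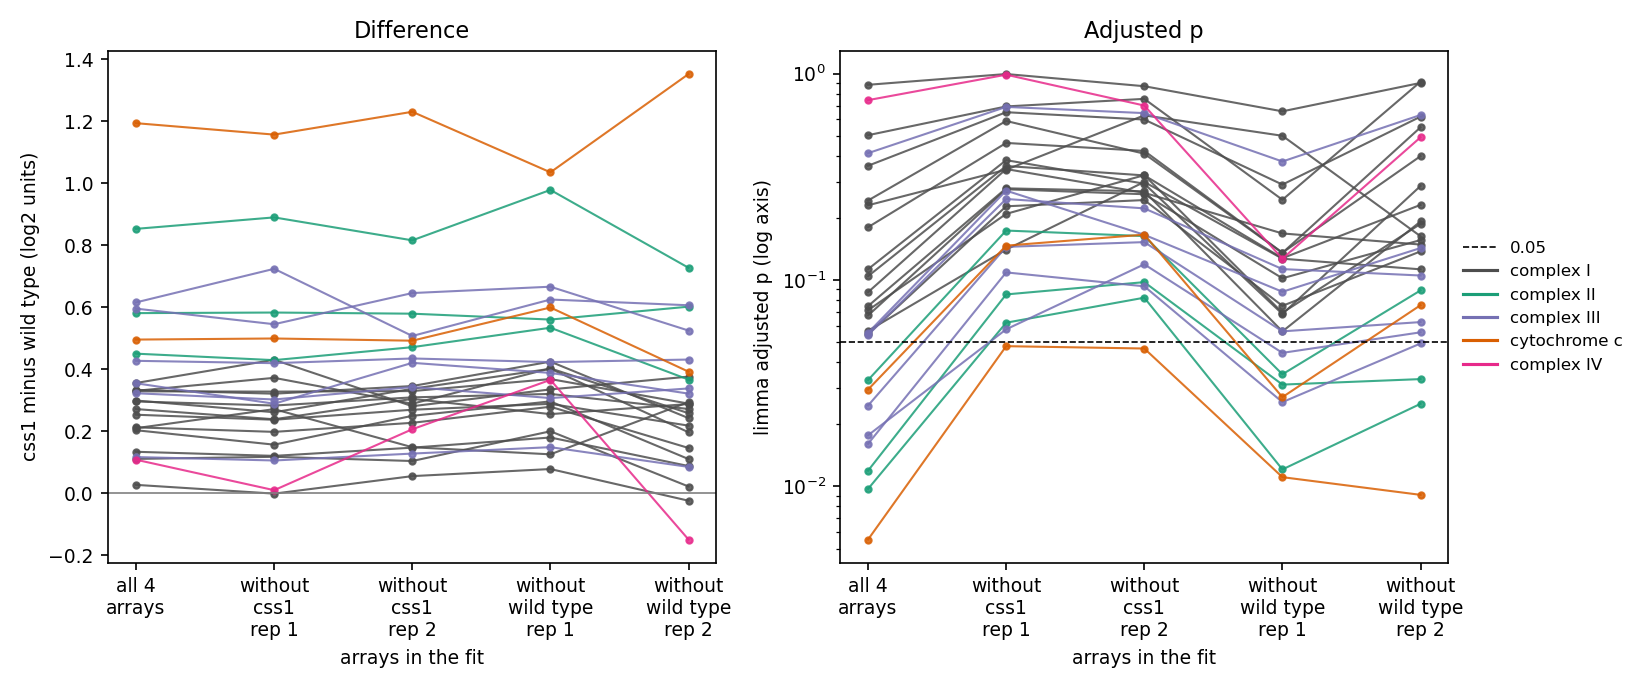
Difference in log2 signal (left) and limma adjusted p on a log axis (right) of each measured gene with all 4 arrays and with each array left out, joined by a line per gene and coloured by complex. CYTC-2 stays below an adjusted p of 0.05 throughout, and the adjusted p of most genes is higher without either css1 array.

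Within each genotype most members shared the sign of the gap between the arrays. In css1, replicate 1 was above replicate 2 for 18 of the 26 members (69.2%, against 56.2% of all probe sets), with a median gap of 0.03 log2 units. In wild type, replicate 1 was above replicate 2 for 19 of 26 (73.1%, against 54.6% of all probe sets), with a median gap of 0.09. The median SD of a member was 0.03 in css1 and 0.08 in wild type (n = 2 each), where that of all probe sets was 0.07 in css1 and 0.09 in wild type.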

How the data were processed

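Transcripts were measured on 4 one-colour Affymetrix arrays (2 css1, 2 wild type), grouped by the sample titles. The deposited values are log2 signals, which the authors computed by RMA, according to the labels and per the submitters' processing notes (version not given). They were used as deposited. Precision is limited by having only 4 arrays. The 64 control probe sets were set aside, leaving 22746. The annotation gave 1 gene for 13513 probe sets, several for 503, and did not list 8730. Gene IDs matched 13436 probe sets to 13286 loci. Tests used limma 3.58.1 in R 4.3.3 (lmFit, eBayes, genotype only, two-sided), with Benjamini-Hochberg adjustment over all 22746 probe sets, and the code was tested on simulated data. Folds are 2 to the power of the log2 difference. The members and lists were chosen with earlier results of these data known. All measured members could be named, along with up to 6 genes per pathway list that passed or had the smallest p. Of 10 listed adenylate, phosphate and porin carrier genes 0 were measured. Alternatives were dropping probe sets below percentile 30 of mean signal, eBayes with trend or robust, median centring, a second quantile normalization, a replicate block, an adjusted p under 0.01, averaging probe sets and leaving out each array.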

Additional observations from a re-analysis of the deposited data

How the results depend on the processing

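Over all probe sets, 3559 passed in the main fit, 3913 with the percentile filter, 3882 with eBayes trend and 3566 with median centring. Median centring raised those higher in css1 from 1736 to 2069, so gains in calls were not limited to the members. The 8 members higher in css1 became 13 with the filter, with eBayes trend or with median centring, as 3 genes of complex I (AT3G12260 in place of GLDH with trend) and the 2 core genes of complex III passed as well. The number was 2 at an adjusted p under 0.01, and 1 to 7 with 1 array left out. Such a fit rests on 3 samples and takes the single remaining array of its genotype to be as variable as the other genotype's pair. Probe sets passing, 3559 in all, numbered 773 at an adjusted p under 0.01 and 560 to 3079 with 1 array left out. Other subunits passing were 0 at an adjusted p under 0.01 (limma; 20 had an unadjusted p under 0.05) and 0 to 13 with 1 array left out, and assembly factors 1 and 1 to 3. Over all 22746 probe sets, 7214 had an unadjusted limma p under 0.05. Same-numbered arrays did not deviate together over probe sets (r = -0.0061, 2 pairs). With 2 pairs this cannot tell whether they shared a growth round or batch. A replicate block gave 1264 probe sets, 4 members, 1 other subunit and 1 assembly factor. The median of cytochrome c was 0.89 with median centring. Among the members, differences that changed sign with 1 array left out were those of FRO1 (AT5G67590; -0.0247 to 0.0776) and AT3G15640 (-0.15 to 0.37). Among the 21 genes of the other lists refitted this way, they were those of SDH1-2 (AT2G18450; -0.155 to 0.0019), AT1G53030 (-0.03 to 0.48), AT1G02410 (-0.0491 to 0.103), CCMH (AT1G15220; -0.0344 to 0.0784) and LHCB4.1 (AT5G01530; -0.249 to 0.0386). The medians of complexes I, II and III moved by less than the spread between arrays under each alternative tried. Averaging the probe sets of a locus ended 1 call, that of SDH2-1. No member's probe set carried a shared-probe suffix, so leaving such probe sets out changed nothing.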

Other observations

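Among all measured members, other subunits, assembly and alternative respiration genes and tissue markers, 1 pair of loci are neighbours in the RefSeq gene order (assembly TAIR10.1). SDH2-2 (AT5G40650), of complex II, lies next to AT5G40660, related to a chaperone of ATP synthase assembly, and both rose (0.58 and 0.50 log2 units, adjusted p = 0.0119 and 0.0172). The pair was noticed after the values were known.

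The cytochrome c oxidase genes AT3G15640 and AT1G80230 encode the same kind of accessory subunit. AT1G80230, named after its value was seen, had 9.99 and 9.97 in css1, against 9.57 and 9.51 in wild type (0.45, adjusted p = 0.0233), while AT3G15640 differed by 0.11 (adjusted p = 0.744). The difference between these genes was not tested, and the wild-type arrays of AT3G15640 varied widely (SD 0.36, n = 2).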
